A study of Mus musculus with 12 samples.

Results

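Suturing of the wild-type mouse cornea was examined by setting the 2 arrays of sutured corneas, as 1 group, against the 2 arrays of intact corneas, 4 of the 12 arrays in the series. The arrays were chosen by the titles of the samples alone. The sutured corneas came from wild-type C57BL/6J mice, with 1 array from day 5 and 1 array from day 7 after the suturing. The intact corneas came from wild-type C57BL/6J mice without sutures, with 2 arrays that the labels call biological replicates. No transgene, deletion or drug is named in the labels of these 4 samples, and the whole cornea was separated from the enucleated eye in each case. The labels state neither the age or sex of the mice nor the number of sutures or any pooling of corneas. The remaining 8 arrays hold corneas that lack or overexpress Dscr1, lack Apoe, or lack both genes.

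The cornea is the transparent front wall of the eye. A stratified epithelium covers a collagen stroma that is kept by keratocytes, and a thin endothelium lines its inner face. The healthy tissue has no blood or lymph vessels in its centre and few leukocytes. Stitches left in the stroma are a standard way of bringing on inflammation and the ingrowth of blood and lymph vessels from the limbus, the border with the conjunctiva. Neutrophils and monocytes are drawn into such tissue by chemokines, vessel walls catch them with selectins and adhesion molecules, and proteases and matrix proteins remodel the wound bed.

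The arrays carry 45101 probe sets, and the deposited signals had been scaled to a trimmed mean of 100 intensity units on each array. The array medians were 15.6 at day 5 and 17.5 at day 7 in sutured corneas, against 16.6 and 16.7 in intact corneas. Changes are differences of log2(intensity + 3.6), sutured minus intact, with their standard error (SE). A gene is said to have risen or fallen where limma's test, adjusted by Benjamini-Hochberg over the 12711 genes tested, gave p at or under 0.05. Genes were chosen for the test by their mean over all 12 arrays, including the sutured ones. A gene dim in intact corneas could enter through its sutured signal, which favours rises in counts of genes tested. The Y-linked genes Eif2s3y and Kdm5d were bright on all 4 arrays (Eif2s3y at 872.6 and 665.9 in sutured corneas, against 633 and 675.5 in intact corneas, and Kdm5d at 134.9 and 157.5 against 143.6 and 164.5). The signal of lens genes differed between the arrays. The 17 lens genes on the array summed to 1683.4 at day 5 and 9988.9 at day 7 in sutured corneas, against 16226.1 and 11628.5 in intact corneas, and their part in other results was not tested. All 16 lens genes tested were lower in sutured corneas, none passed the test, and Crygf, a gamma-crystallin, read 1 and 158.7 against 1522.3 and 884.9.

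Between the sutured and the intact arrays, 583 of the 12711 genes tested differed (4.59%). Of these, 411 rose (3.23%) and 172 fell (1.35%), and 2955 genes had an unadjusted p under 0.05. The rises were the larger changes. Their median was 1.85 on the log2 scale and 189 of them were 4-fold or more, whereas the falls had a median of -0.94 and 5 of them were 4-fold or more. The median change of all genes tested was -0.06. The values of the 2 groups did not overlap in 56.4% of the genes tested, with sutured corneas higher in 24.2% and lower in 32.2%, so a lack of overlap alone sets few genes apart. The counts of gene lists given below stand beside these shares of all genes tested, and a single call in a list says little. The number of calls rested on having both intact arrays. It was 22 without intact replicate 1 and 13 without intact replicate 2, but 1678 without the day 5 array and 2222 without the day 7 array. Gene lists lost calls in the same way. Without intact replicate 1 and without intact replicate 2, the macrophage genes that rose numbered 3 and 3 (16 with all arrays), the CXC chemokine genes 3 and 2 (8), the matrix protease genes 3 and 1 (7) and the keratinisation genes 2 and 2 (5). Each other list kept 0 or 1 in both fits, among them the CC chemokine genes with 0 and 0 (8) and the neutrophil and acute-phase genes with 1 and 1 each (7 and 6). These fits have a single residual degree of freedom, and where 1 array of a group is left its spread is assumed to equal that of the other group. The 13 genes that passed in all 4 of them were Chil1, Clec4d, Cxcl3, Fcgr2b, Krt16, Krt17, Lyz1, Lyz2, Mmp3, Mpeg1, Ppbp, Saa3 and Srgn. The p-values measure the spread between 2 arrays a group, and the difference between day 5 and day 7 counts as part of that spread.

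**Figure D1:**
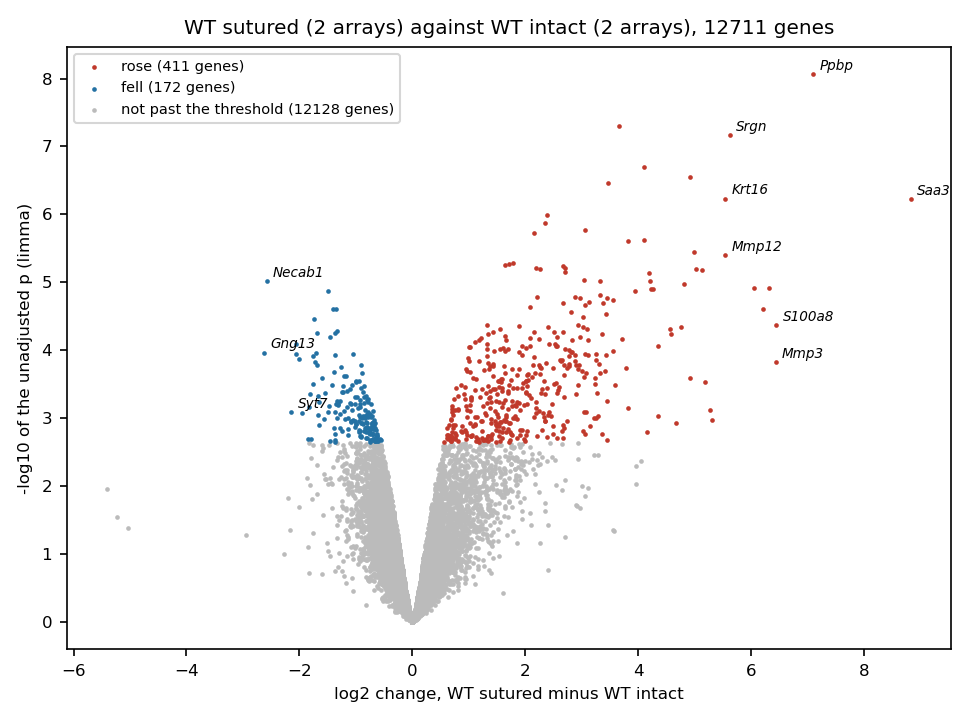
Each point is 1 of 12711 genes, with the log2 change (WT sutured minus WT intact, 2 arrays each) on the horizontal axis and -log10 of limma's unadjusted p on the vertical axis. The 411 genes that rose (red) reach 8.84, whereas the 172 that fell (blue) reach -2.63.

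The largest rise was that of Saa3, an acute-phase serum amyloid A protein made in inflamed tissue. Its signal was 6354 at day 5 and 2687.5 at day 7 in sutured corneas, against 3.9 and 7.2 in intact corneas, a change of 8.84 ± 0.41 (adjusted p = 0.00094). Both sutured values were far above intact values that lay near the added constant, so the size of the change depends on that constant and was 9.3 with 1.2 added and 8.05 with 10.2 added. Ppbp, a CXC chemokine of platelets and myeloid cells, read 1264.5 and 1399.7 in sutured corneas, against 6.8 and 5.5 in intact corneas (7.10 ± 0.16, adjusted p = 0.00011). Both days were high and close to each other, and the groups were far apart. S100a8, which pairs with S100a9 to form the neutrophil protein calprotectin, read 4596.4 and 1085.1 against 24.6 and 19.5 (6.45 ± 0.62, adjusted p = 0.00924), with day 5 above day 7. Mmp3, the matrix protease stromelysin 1, read 3622.5 and 3207.8 against 94 and 12.2 (6.44 ± 0.77, adjusted p = 0.0138). The sutured arrays were alike for Mmp3, and the wide spread came from the intact arrays. The other genes among the 15 largest rises were Cxcl2 (6.33) and Cxcl5 (6.05), chemokines for neutrophils, Chil1 (6.22), a chitinase-like protein, Srgn (5.63), the proteoglycan core of leukocyte granules, and Mmp12 (5.55), the macrophage elastase. Krt16 (5.55), a keratin of wounded epithelium, Sprr2d (5.31) and Sprr2f (5.18), proteins of the cornified envelope, Nr4a1 (5.28), an immediate early nuclear receptor, Socs3 (5.13), a feedback inhibitor of cytokine signalling, and Timp1 (5.02), an inhibitor of matrix proteases, made up the rest.

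**Figure D2:**
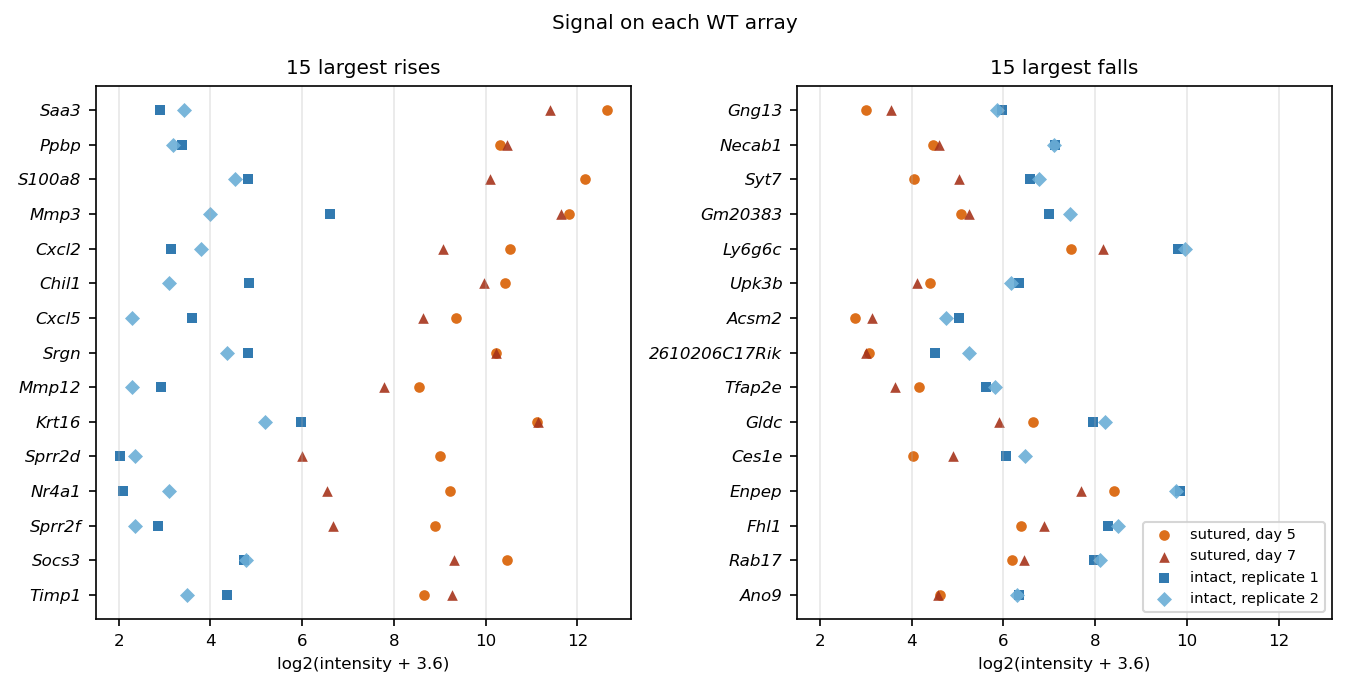
Signal as log2(intensity + 3.6) on each of the 4 WT arrays for the 15 largest rises (left) and the 15 largest falls (right) among called genes in which the sutured and the intact arrays lay apart. Each point is 1 array. Saa3 stands highest at day 5, and Ppbp, Srgn and Krt16 are alike on both days, whereas the falls are smaller, with Gng13 at -2.63.

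Chemokines rose together. Of 15 CXC chemokines and receptors tested, 8 rose and none fell, with a median change of 2.01, and of 11 CC chemokines and receptors 8 rose and none fell, with a median of 2.68. A run of CXC ligands, several of which attract neutrophils, lies side by side on chromosome 5, in the order Cxcl5, Ppbp, Pf4, Cxcl3, Cxcl15, Cxcl1 and Cxcl2. The 6 that were tested all rose, beside 3.23% of all genes tested, and Cxcl15 was not tested. Cxcl2 read 1473.1 and 532.7 in sutured corneas, against 5.2 and 10.3 in intact corneas (adjusted p = 0.00442). Cxcl3 read 179.1 and 154.6, against 0.6 and 3.2 in intact corneas (4.99 ± 0.31, adjusted p = 0.00307). Cxcl1 read 690.3 and 245.5, against 12.3 and 15.2 in intact corneas (4.59 ± 0.46, adjusted p = 0.00972). Cxcl1 and Cxcl2 were higher at day 5, whereas Cxcl3 was alike on both days, and no sutured value came near an intact one. Pf4, platelet factor 4, rose by 2.91 and was the higher at day 7, at 218.8 and 479 against 39.3 and 40.7. Outside this stretch, Cxcl12, the stromal chemokine that holds cells through its receptor Cxcr4, rose by 2.01 and Cxcr4 by 2.60. Cxcr2, the neutrophil receptor for Cxcl1, Cxcl2, Cxcl3 and Cxcl5, read 13.6 and 11.3 against 1.7 and 0.7 and did not pass (1.75, adjusted p = 0.0525).

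The start regions of Cxcl1, Cxcl2 and Cxcl3 are shown because these neighbouring genes rose together, and that of Il6 because it is a cytokine gene with letters of the same kind. NF-kB, a transcription factor of inflammation, is known to bind sites of the form GGG, then 2 bases of any kind, then TTTCC. RefSeq's windows, from 250 bases before to 50 bases after each start, were searched on both strands, and the motif was present in 1.63% of 32851 windows of 300 bases. The form that Cxcl1, Cxcl2 and Cxcl3 share, GGGAATTTCC, was present in 0.0883% of all windows. No match to the motif was found in the windows of Ppbp, Pf4, Cxcl12, Il1b or Saa3. The stretches below are the 110 bases before the start on the plus strand of GRCm38.p6, at chr5:90891135-90891244 for Cxcl1, chr5:90903789-90903898 for Cxcl2, chr5:90785991-90786100 for Cxcl3 and chr5:30013004-30013113 for Il6. Capitals mark each match on either strand.
Cxcl1: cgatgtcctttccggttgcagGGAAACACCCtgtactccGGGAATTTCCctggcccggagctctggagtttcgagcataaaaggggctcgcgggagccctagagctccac
Cxcl2: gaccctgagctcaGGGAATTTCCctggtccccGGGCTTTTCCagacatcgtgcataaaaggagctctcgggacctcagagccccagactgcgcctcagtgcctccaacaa
Cxcl3: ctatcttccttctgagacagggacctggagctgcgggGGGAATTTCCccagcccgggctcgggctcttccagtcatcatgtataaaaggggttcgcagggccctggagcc
Il6: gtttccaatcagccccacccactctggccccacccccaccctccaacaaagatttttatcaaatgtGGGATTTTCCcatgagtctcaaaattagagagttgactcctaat
The matches are letters in a window and say nothing of binding in these corneas.

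Among the CC chemokines, which draw monocytes, Ccl6 rose by 4.57 ± 0.45 (adjusted p = 0.00945), at 180.7 and 129.9 in sutured corneas, against 0.7 and 6.6 in intact corneas. Ccl3 rose by 4.24, Ccl9 by 3.05 and Ccl2, the main monocyte chemokine, by 3.04. The receptors Ccr1 and Ccr2 rose by 2.93 and 2.07. Neighbouring genes did not all pass. On chromosome 11, Ccl2, Ccl7 and Ccl8 rose, whereas Ccl12 read 18.1 and 56.2 against 11.7 and 1.1 (adjusted p = 0.152). Likewise Ccl9, Ccl6 and Ccl3 rose, and so did Wfdc17, Wfdc18 and Wfdc21, which follow them and encode whey-acidic-protein domain proteins, but Ccl4 between them read 42.9 and 43 against 23 and 13.9 (1.11, adjusted p = 0.0895).

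**Figure D3:**
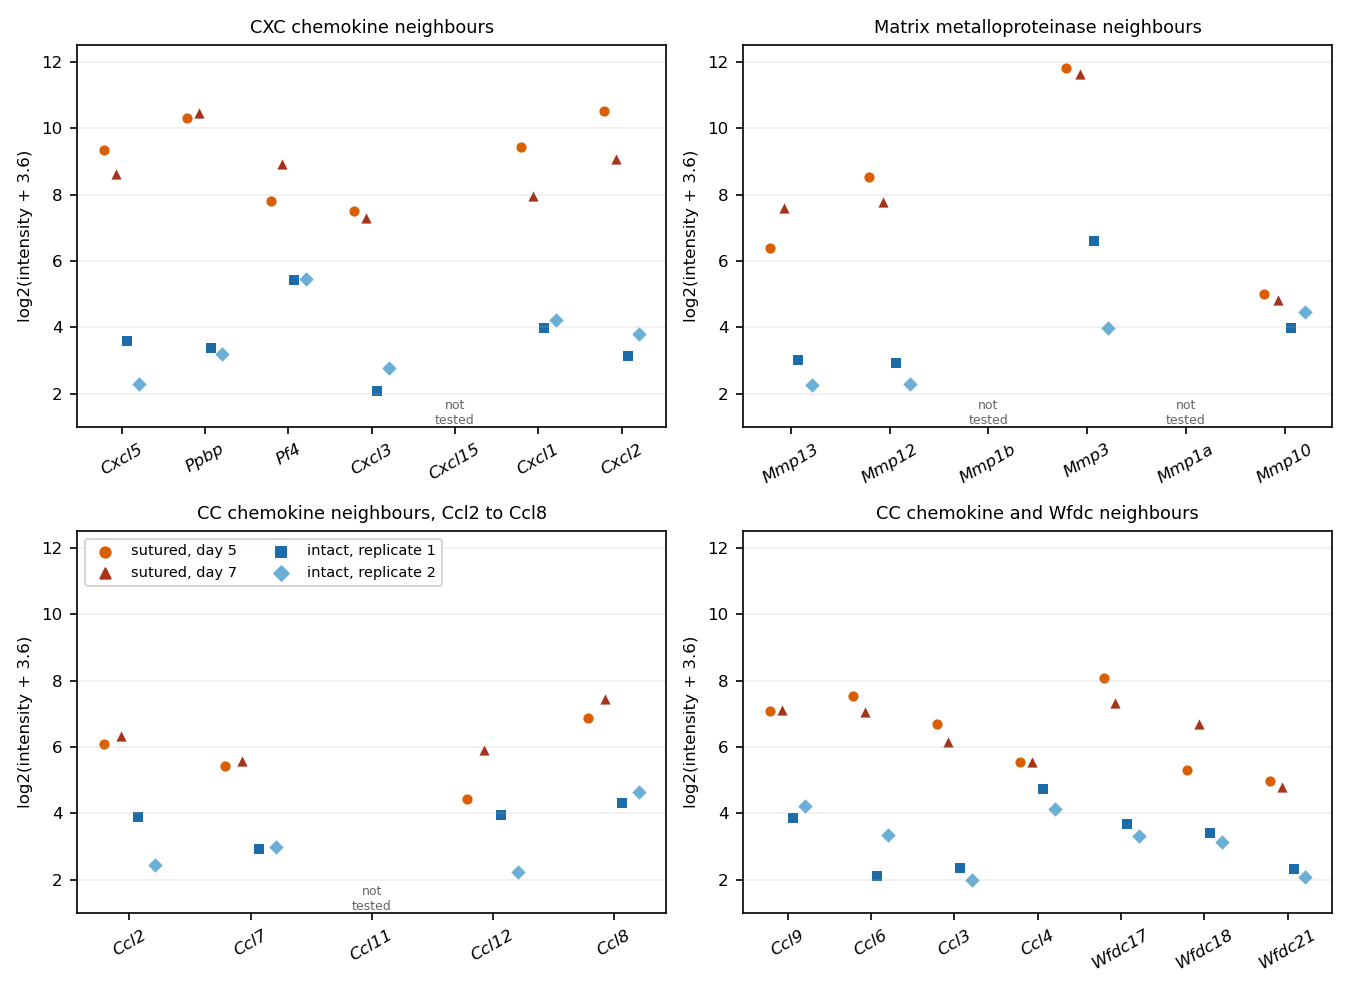
Signal as log2(intensity + 3.6) on each of the 4 WT arrays for 4 runs of neighbouring genes, in their order on chromosomes 5, 9 and 11. Orange and red points are the sutured arrays and blue points the intact arrays. Each of the 6 CXC ligands tested was higher in both sutured arrays, and Ccl4, Ccl12 and Mmp10 show smaller differences that did not pass the test.

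Most macrophage genes rose. Of 22 tested, 16 rose and none fell (median 2.41), beside 3.23% of all genes tested that rose. In 20 of them the groups did not overlap, with sutured corneas higher, beside 24.2% of all genes tested. Mpeg1, a pore-forming protein of macrophages, read 397.5 and 378.4 in sutured corneas, against 18.8 and 19.4 in intact corneas (4.11 ± 0.16, adjusted p = 0.000628). Fcgr2b, the inhibitory Fc receptor, read 392.9 and 476.8, against 27.5 and 17.1 in intact corneas (4.10 ± 0.24, adjusted p = 0.00227). Lyz2, the lysozyme of myeloid cells, read 1310.6 and 1317.2, against 100.3 and 100.4 in intact corneas (3.66 ± 0.11, adjusted p = 0.000291). For all 3 the arrays of a group were close together and the groups were far apart. Fcer1g, the shared signalling chain of Fc receptors, rose by 3.60. Adgre1, which encodes F4/80, read 54.4 and 133.8 against 13.9 and 30.8 and did not pass (adjusted p = 0.0966). The summed signal of the macrophage list was 6804.3 and 8252.9 in sutured corneas, against 1832.5 and 1706.2 in intact corneas. In a whole cornea, more cells of a type cannot be told apart from more RNA per cell.

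Of 12 neutrophil genes tested, 7 rose and none fell (median 2.10). Beside S100a8, these included the pathogen-sensing lectins Clec4d, which rose by 4.93 ± 0.20 (adjusted p = 0.000717), and Clec4e (3.95), and Csf3r, the receptor for granulocyte colony-stimulating factor (3.01). Clec4d read 255.3 and 281.8 in sutured corneas, against 5.2 and 5.4 in intact corneas. S100a9, the partner of S100a8, read 6191.6 at day 5 and 719.5 at day 7, against 170.5 and 102.8 in intact corneas. Both sutured values exceeded the intact ones, but they lay so far apart that S100a9 did not pass (3.96 ± 0.92, adjusted p = 0.0713). Mmp8, the neutrophil collagenase, stayed dim, at 10.2 and 11.2 against 5.5 and 3.7 (adjusted p = 0.217). The summed neutrophil signal was 11711.7 at day 5 and 2924.7 at day 7, against 380.5 and 267.8 in intact corneas, and most of it was S100a8 and S100a9. The drop in the sum was not shared by the list, whose median change from intact was 2.24 at day 5 and 2.28 at day 7. Of the 12 genes tested, 5 were higher at day 7.

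Antigen presentation, adhesion and oxidant defence were the further leukocyte lists. Of 8 genes of MHC class II presentation, 4 rose, namely the protease Ctss (2.16), H2-Aa (2.08), H2-Eb1 (1.94) and H2-Ab1 (1.82), the last 3 being chains of class II molecules. Of 8 adhesion genes, 4 rose: Ptprc, the leukocyte surface phosphatase CD45 (3.26), Selp, the P-selectin of activated vessels and platelets (3.07), Itgb2, the leukocyte integrin chain (2.83), and Icam1, its ligand (2.70). Other probe sets of Ptprc and Selp did not pass, at 0.06 (adjusted p = 0.947) and 1.31 (adjusted p = 0.132). Of 15 genes of the phagocyte oxidase and oxidant defence, 5 rose, among them the oxidase subunits Cybb (2.49) and Ncf1 (1.91), the haem-degrading enzyme Hmox1 (1.64) and the extracellular superoxide dismutase Sod3 (1.51). Of 18 lymphocyte and mast cell genes, 16 were on the array and only 4 were bright enough to test. Of these 4, Klrd1, a receptor chain of natural killer cells, rose (2.68 ± 0.52, adjusted p = 0.0467). With 10.2 added in place of 3.6 Klrd1 no longer passed (adjusted p = 0.0625).

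Of 21 interleukin-1 family and inflammatory cytokine genes 5 rose and none fell (median 1.25). Il1b, the main secreted interleukin-1, read 451.8 and 263.1 in sutured corneas, against 18 and 13.3 in intact corneas (4.19 ± 0.29, adjusted p = 0.0034). Il6 read 254.2 at day 5 and 36.8 at day 7, against 0.2 and 0.6 in intact corneas (4.68 ± 0.81, adjusted p = 0.0364). Its groups were well apart although the days differed several-fold, and with 10.2 added in place of 3.6 it no longer passed (adjusted p = 0.0637). Nlrp3, the inflammasome sensor, rose by 2.74 and Il33, an alarmin of epithelial cells, by 1.85. Csf3, granulocyte colony-stimulating factor, read 69.4 and 5.7 against 1.2 and 1.4 and did not pass (adjusted p = 0.19). Of 9 acute-phase genes 6 rose and none fell (median 3.24), among them Lcn2, a siderophore-binding lipocalin (4.35), Cp, ceruloplasmin (3.24), and Hp, haptoglobin (2.78). Of 10 complement genes 5 rose, including C3ar1, the receptor for the C3a fragment (2.41), Cfb, factor B of the alternative pathway (2.38), and C1ra and C1s1, proteases of the classical pathway (1.64 and 1.58). In contrast, 1 of 17 interferon-stimulated genes rose (median 0.55), the membrane antiviral protein Ifitm3 (1.90 ± 0.18, adjusted p = 0.00931). Of all genes tested, 3.23% rose. The median change of the 17 interferon-stimulated genes from intact was 0.01 at day 5 and 0.71 at day 7, beside -0.07 and -0.03 for all genes tested. The difference between the days was not tested.

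**Figure D4:**
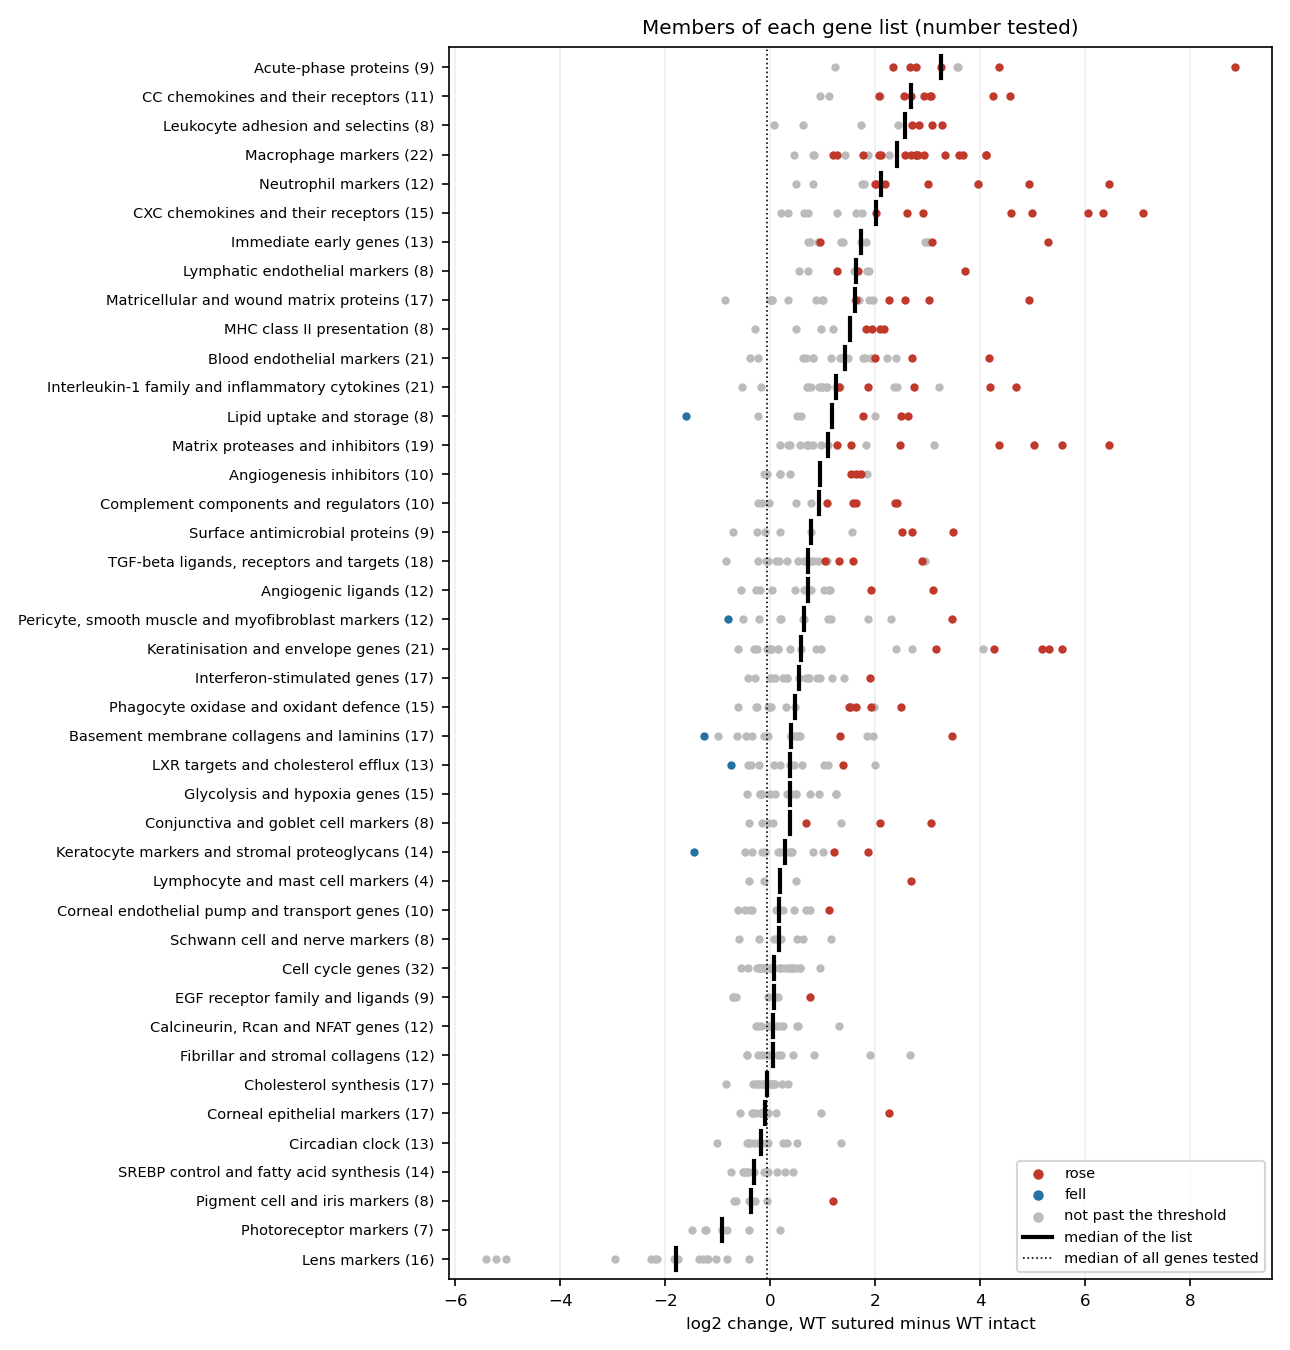
Log2 change (WT sutured minus WT intact) of each tested gene in the gene lists, with lists as rows and the number tested in parentheses. Points are genes, coloured by the test, black bars are list medians and the dotted line is the median of all genes tested at -0.06. Acute-phase (3.24) and CC chemokine (2.68) lists have the highest medians and lens genes (-1.80) the lowest.

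Few of the listed corneal epithelial markers passed the test. Of 17 corneal epithelial genes, Krt14, a keratin of basal cells, rose and none fell (median -0.11). Krt14 read 4278.5 and 3932.2 in sutured corneas, against 958.1 and 761.1 in intact corneas (2.26 ± 0.16, adjusted p = 0.00334). Krt12, the keratin that defines corneal epithelium, read 6114.5 and 5631.5 against 7260.9 and 5291.1 (-0.08 ± 0.20, adjusted p = 0.845), and its groups overlapped. Aldh3a1 (-0.11), a crystallin-like enzyme of the corneal epithelium, Tkt (-0.15), transketolase, and Krt5 (-0.17), the partner of Krt14, did not pass either. Pax6, the eye transcription factor, read 1820.8 and 2502.2 against 3261.1 and 3118.4 (-0.58, adjusted p = 0.134). Krt12, Tkt, Aldh3a1 and Krt5 are among the brightest probe sets. Probe sets at or over 5000 units numbered 148 at day 5 and 73 at day 7, against 205 and 84 in intact corneas, and whether signals this bright can still rise was not tested.

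Of 21 keratinisation genes tested, which include keratins of wounded epithelium and proteins of the cornified envelope, 5 rose and none fell (median 0.58). Krt16 read 2230 and 2239.7 in sutured corneas, against 59.4 and 32.7 in intact corneas (5.55 ± 0.26, adjusted p = 0.00094). Krt17, a keratin of regenerating epithelium, read 367.7 and 442.8, against 26.1 and 11.6 in intact corneas (4.26 ± 0.33, adjusted p = 0.00442). Both were as high at day 7 as at day 5. The envelope genes behaved otherwise: Sprr2d read 511.5 at day 5 and 60.2 at day 7, against 0.5 and 1.5 in intact corneas (adjusted p = 0.0345). With 10.2 added Sprr2d no longer passed (adjusted p = 0.0559), and its sign turned (-0.15) in a fit of 7 arrays with Dscr1 genotype as a term. Sprr2d and Sprr2f are close copies, as are Lyz1 and Lyz2, Krt6a and Krt6b, and Csf2rb and Csf2rb2, and their signals may be shared. Krt6a and Krt6b, the usual partners of Krt16, were already bright and did not pass (0.01 and -0.07). Of 8 conjunctiva and goblet cell genes 3 rose, all of them keratins: Krt4 (3.06 ± 0.26, adjusted p = 0.00567), Krt19 (2.08) and Krt13 (0.68). The goblet cell mucin Muc5ac was dim on all 4 arrays, at 2.8 and 1.2 against 1.3 and 7.5. The surface antimicrobial genes Lyz1 (3.47), Wfdc21 (2.69) and Slpi, a secreted inhibitor of leukocyte proteases (2.51), rose, 3 of 9 tested.

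None of 32 cell cycle genes passed by limma (median 0.06). The nearest to the threshold was Mcm4, a subunit of the replication helicase (0.94 ± 0.19, adjusted p just over 0.05). It read 445.2 and 636.6 in sutured corneas, against 285.8 and 264.6 in intact corneas. In the same fit, 2955 of all 12711 genes had an unadjusted p under 0.05. Mki67, the proliferation marker, read 678.5 and 454.4 against 652.9 and 614.9 (-0.19, adjusted p = 0.607). Of 9 genes of the EGF receptor family, Tgfa, a ligand of the epidermal growth factor receptor, rose by 0.76 ± 0.14 (adjusted p = 0.043), and another of its probe sets read -0.09. Fgf7, a fibroblast-derived growth factor for epithelial cells, rose by 3.09 ± 0.30 (adjusted p = 0.00945), at 101.5 and 63.6 against 6.7 and 5.9.

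Of 19 matrix proteases and inhibitors tested, 7 rose and none fell (median 1.09). Mmp12 read 367.6 and 215.6 in sutured corneas, against 4 and 1.3 in intact corneas (5.55 ± 0.35, adjusted p = 0.00318). Mmp13, a collagenase, read 81.1 and 190.7, against 4.5 and 1.2 in intact corneas (4.36 ± 0.47, adjusted p = 0.0114). Timp1 read 397.9 and 609, against 17.1 and 7.7 in intact corneas (5.02 ± 0.35, adjusted p = 0.00334). Mmp12 was the higher at day 5, Mmp13 and Timp1 at day 7, and all sutured values lay above the intact ones. Mmp9, the gelatinase of leukocytes and migrating epithelium, read 35.2 and 281.1 against 9.4 and 7.6 and did not pass (3.12 ± 0.86, adjusted p = 0.103), with its sutured values far apart. Mmp13, Mmp12, Mmp3 and Mmp10 lie near each other on chromosome 9, and of these 4 only Mmp10, a second stromelysin, did not pass (28.6 and 24.6 against 12.1 and 18.5, adjusted p = 0.226).

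The start regions of Mmp3, Mmp12 and Mmp13 are shown because AP-1, the dimer of Fos and Jun proteins, is known to bind the letters TGANTCA and immediate early genes are described further on. The motif, which reads as TGANTCA on both strands, was present in 7.81% of the 32851 windows. It was also found in the window of Mmp10, which did not pass, and in 1 of 2 windows of Mmp12, and it was not found in that of Timp1. The stretches are the 70 bases before the start on the plus strand of GRCm38.p6, at chr9:7445752-7445821 for Mmp3, chr9:7347304-7347373 for Mmp12 and chr9:7272444-7272513 for Mmp13, with the match in capitals.
Mmp3: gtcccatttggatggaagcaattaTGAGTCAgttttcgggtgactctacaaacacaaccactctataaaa
Mmp12: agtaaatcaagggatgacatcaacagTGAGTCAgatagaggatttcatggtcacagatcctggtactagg
Mmp13: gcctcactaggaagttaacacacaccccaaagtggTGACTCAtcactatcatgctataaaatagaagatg

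Of 17 matricellular and wound matrix genes, 5 rose and none fell (median 1.62). Tnc, the wound glycoprotein tenascin C, read 268.7 and 867.7 in sutured corneas, against 22.2 and 6.4 in intact corneas (4.92 ± 0.64, adjusted p = 0.0171). Vcan, a large proteoglycan of loose matrix, rose by 3.02, Lox, the collagen cross-linking oxidase, by 2.56, and Ccn2, connective tissue growth factor, by 2.25. None of 12 fibrillar and stromal collagens passed (median 0.05). Col1a1 read 481.9 at day 5 and 1247.2 at day 7, against 912.4 and 698.4 in intact corneas (-0.04, adjusted p = 0.965), so its days lay on either side of the intact values. Col3a1, the collagen of early scar, read 606.1 and 3177.8 against 300.3 and 155.9 (2.66 ± 0.74, adjusted p = 0.106). Of 17 genes of basement membrane collagens and laminins, Lama4, a laminin chain of vessels, and Lamb3, a chain of epithelial laminin, rose (3.45 and 1.32), and Col4a3, a collagen IV chain, fell by 1.27 ± 0.23 (adjusted p = 0.0392). Another probe set of Col4a3 was at -0.64 (adjusted p = 0.172), and its sign turned (0.25) in the fit of 7 arrays. Keratocyte genes held no common direction, with 2 rises and 1 fall among 14. Omd, a small leucine-rich proteoglycan, and Cd34, a surface sialomucin, rose (1.85 and 1.22), and Aldh1a1, a corneal crystallin of keratocytes, fell by 1.45 ± 0.15 (adjusted p = 0.0102), at 415.5 and 526.9 against 1246.8 and 1329. The proteoglycans Kera (-0.16), Lum (0.40) and Dcn (0.14) did not pass.

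Vessel genes were higher in sutured corneas, though few passed the test. Of 21 blood endothelial genes, 19 were higher, 3 rose and none fell (median 1.43). Plvap, a protein of fenestrated and growing vessels, read 62 and 138.3 in sutured corneas, against 13 and 9.8 in intact corneas (2.69 ± 0.40, adjusted p = 0.0234). Aplnr, the apelin receptor of sprouting endothelium, read 54.6 and 274.3, against 7.1 and 1.1 in intact corneas (4.16 ± 0.77, adjusted p = 0.0424). Another probe set of Aplnr read a change of 0.82 (adjusted p = 0.392), and with 10.2 added in place of 3.6 Aplnr no longer passed (adjusted p = 0.053). Ecscr, an endothelial surface protein, rose by 2.0, and it too no longer passed with 10.2 added (1.61, adjusted p = 0.0552). Both sutured arrays lay above the intact ones for these genes, and day 7 was the higher in each. The widely used markers Cdh5 (2.39, adjusted p = 0.0658), Pecam1 (1.76, adjusted p = 0.139) and Vwf (1.91, adjusted p = 0.0899) did not pass, and Kdr, a receptor for vascular endothelial growth factor, read 50.1 and 81.6 against 86.5 and 67.5 (-0.24, adjusted p = 0.633). The median change of the 21 genes from intact was 0.80 at day 5 and 2.18 at day 7, beside -0.07 and -0.03 for all genes tested. The difference between the days was not tested. The list summed to 595.6 at day 5 and 1403.9 at day 7, against 360.7 and 309.1 in intact corneas. Of 6 genes of red blood cells, 3 were on the array with 1 gene symbol and all were too dim to test, with a summed signal of 8.4 and 8.3 against 18.1 and 17.5.

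Of 8 lymphatic endothelial genes, all were higher in sutured corneas and 3 rose (median 1.63). Lyve1, the hyaluronan receptor of lymph vessels and some macrophages, read 63.9 and 118.6 in sutured corneas, against 2.1 and 4.8 in intact corneas (3.71 ± 0.38, adjusted p = 0.0104). Reln, which is made by lymphatic endothelium among other cells, rose by 1.66 and Nrp2, a co-receptor for lymphatic growth factors, by 1.26. Other probe sets of Lyve1 and Nrp2 did not pass, at 1.77 (adjusted p = 0.0854) and 1.19 (adjusted p = 0.118). Flt4, the receptor for Vegfc, read 23.7 and 45.3 against 9.9 and 3.8 (1.87, adjusted p = 0.0726). Among 12 angiogenic ligands, Fgf7 and Adm, adrenomedullin (1.91), rose, whereas Vegfa read 144.4 and 86.1 against 63.5 and 37.1 (1.14, adjusted p = 0.12) and Vegfc 38.8 and 87 against 28.5 and 25.1 (1.03, adjusted p = 0.179). Of 10 inhibitors of angiogenesis, 3 rose as well: Spock1, a testican proteoglycan (1.72), Thbs1, thrombospondin 1 (1.63), and Adamts1, a protease (1.54). Another probe set of Thbs1 did not pass, at 1.25 (adjusted p = 0.0984). Of 12 pericyte and smooth muscle genes, Rgs5, a regulator of G-protein signalling in pericytes, rose by 3.46 ± 0.67 (adjusted p = 0.0475) and Notch3 fell by 0.80. Other probe sets of Rgs5 and Notch3 did not pass, at 1.27 (adjusted p = 0.256) and -0.73 (adjusted p = 0.0829). With 10.2 added in place of 3.6, Rgs5 and Spock1 no longer passed (adjusted p = 0.0523 and 0.0531). Among 18 genes of the transforming growth factor beta family, Inhba and Inhbb, which encode activin chains, rose (2.88 and 1.58, with another probe set of Inhbb at -0.77), as did the receptor Tgfbr2 (1.31) and the feedback repressor Skil (1.05). Another probe set of Skil did not pass, at 0.94 (adjusted p = 0.148).

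The falls were smaller than the rises. Gng13, a G-protein subunit of taste and other sensory cells, read 4.5 and 8.2 in sutured corneas, against 58.8 and 54.7 in intact corneas (-2.63 ± 0.29, adjusted p = 0.0122). Necab1, a neuronal calcium-binding protein, read 18.6 and 20.5, against 136.2 and 133.4 in intact corneas (-2.58 ± 0.19, adjusted p = 0.00394). Both genes had groups that were tight and far apart. Syt7, a calcium sensor of exocytosis, fell by 2.14, Ly6g6c by 2.05 and Upk3b, a uroplakin of the urothelium and mesothelium, by 2.0. Further falls were Gldc, the glycine decarboxylase (-1.81), Tfap2e, a transcription factor (-1.82), Ces1e, a carboxylesterase (-1.80), Fhl1, a LIM-domain protein (-1.75), Enpep, an aminopeptidase that cleaves angiotensin (-1.75), Rab17, a GTPase of epithelial traffic (-1.74), and Ano9, a protein of the anoctamin family (-1.72). Acsm2 (-1.95), 2610206C17Rik (-1.85) and Gm20383 (-2.06) completed the 15 with the largest falls.

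The genes altered in the other mice of the series did not pass in this comparison. Rcan1, the current name of Dscr1, whose protein regulates the phosphatase calcineurin, read 663.6 and 579.7 in sutured corneas, against 630.4 and 649.5 in intact corneas (-0.04 ± 0.12, adjusted p = 0.857), and its groups overlapped in range. Apoe, an apolipoprotein that carries cholesterol, read 1124.2 and 928.8 against 1030.5 and 776.5 (0.19 ± 0.18, adjusted p = 0.56). None of 12 calcineurin and NFAT genes passed (median 0.05). Rcan2 was the nearest at 1.31 ± 0.26 (adjusted p = 0.0507). Of the genes of cholesterol synthesis, none of 17 passed (median -0.06), with Dhcr7, which makes the last step to cholesterol, at -0.85 (adjusted p = 0.0704). Of 14 SREBP and fatty acid synthesis genes none passed (median -0.32), with Elovl6 the nearest at -0.75 ± 0.15 (adjusted p = 0.0516). Among 13 LXR targets, Abca1, the cholesterol exporter, rose by 1.39 ± 0.21 (adjusted p = 0.0255) and Mylip, which degrades the low-density lipoprotein receptor, fell by 0.75. Of 8 genes of lipid uptake and storage, Fabp4, a fatty acid carrier (2.63), and the scavenger receptors Cd36 (2.49) and Msr1 (1.77) rose, and Vldlr, a lipoprotein receptor, fell by 1.6 ± 0.21 (adjusted p = 0.0174). Macrophages also express Abca1, Fabp4, Cd36 and Msr1, and the macrophage sums given above moved the same way, so their part in these rises was not tested.

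The remaining lists held few calls. None of 15 glycolysis and hypoxia genes (median 0.37), 13 clock genes (median -0.18), 8 Schwann cell and nerve genes (median 0.16), 7 photoreceptor genes (median -0.92) or 2 skeletal muscle genes passed. The lowest adjusted p in each list belonged to Pgk1, a glycolytic kinase (0.75, adjusted p = 0.0805), Per1, a clock repressor (1.35, adjusted p = 0.0583), Pmp22, a myelin protein (0.51, adjusted p = 0.0952), Crx, a photoreceptor transcription factor (-0.92, adjusted p = 0.165), and Acta1, skeletal muscle actin (1.37, adjusted p = 0.0798). Mitf, a pigment cell transcription factor that other cells also express, rose by 1.19 (1 of 8 pigment cell genes), and Slc16a1, a lactate transporter, by 1.11 (1 of 10 corneal endothelial genes). Of all genes tested, 3.23% rose. Slc4a11, a transporter of corneal endothelium, was at -0.62 (adjusted p = 0.26).

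Within the sutured group the 2 arrays differ by day, with 1 array for each, so their differences are given without a test and cannot be told apart from differences between single samples. Of the 411 genes that rose, 243 were higher at day 7. In 44 of them the days differed 2-fold or more, with 18 higher at day 5 and 26 at day 7. Immediate early genes, which respond to stimuli within minutes and mostly code for transcription factors, were all lower at day 7. Their median change from intact was 2.54 at day 5 and 0.92 at day 7, and 3 of the 13 rose: Nr4a1 (5.28), Egr3 (3.07) and Fos (0.94). Nr4a1 read 589.3 at day 5 and 90.2 at day 7, against 0.7 and 5 in intact corneas. Atf3 read 512 and 73.9 against 25.2 and 18 and did not pass (3.0, adjusted p = 0.1), and Fosl1 read 146.2 and 13.3 against 4.5 and 1.4 (2.98, adjusted p = 0.141). Day 5 was the high one for each of these genes. With 1 sutured array set against the 2 intact arrays, 13 of the 13 rose with day 5 and 9 with day 7, beside 8.04% and 8.13% of all genes tested.

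The 10 called genes with the largest excess at day 5 were Sprr2d, Il6, Nr4a1, Lcn2, Sprr2f, S100a8, Sprr1a, Egr3, Casp4 and Cxcl1, with day 7 minus day 5 between -3.01 and -1.48. Casp4, an inflammatory caspase, read 63.3 and 18.9 against 0.4 and 0.3. The 10 with the largest excess at day 7 were Aplnr, Rgs5, Aspn, Tnc, Vcan, Prg4, Cd93, Lama4, Fcrls and Moxd1, with differences between 1.39 and 2.26. These are genes of vessels (Aplnr, Cd93 and Lama4), of pericytes (Rgs5), of the matrix (Aspn, Tnc, Vcan and the lubricating proteoglycan Prg4), a gene of tissue macrophages (Fcrls) and a monooxygenase-like gene (Moxd1). Aspn, a small leucine-rich proteoglycan, read 43.6 and 166.9 against 3.9 and 1.8. Rgs5 read 188.4 and 824.8 against 45.3 and 23.1. All 21 blood endothelial genes were higher at day 7, with a median change from intact of 0.80 at day 5 and 2.18 at day 7, and so were all 12 fibrillar and stromal collagens (-0.34 and 0.54), whereas all 15 glycolysis and hypoxia genes were lower at day 7 (0.47 and -0.15). Of all genes tested, 7315 of 12711 were higher at day 7.

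**Figure D5:**
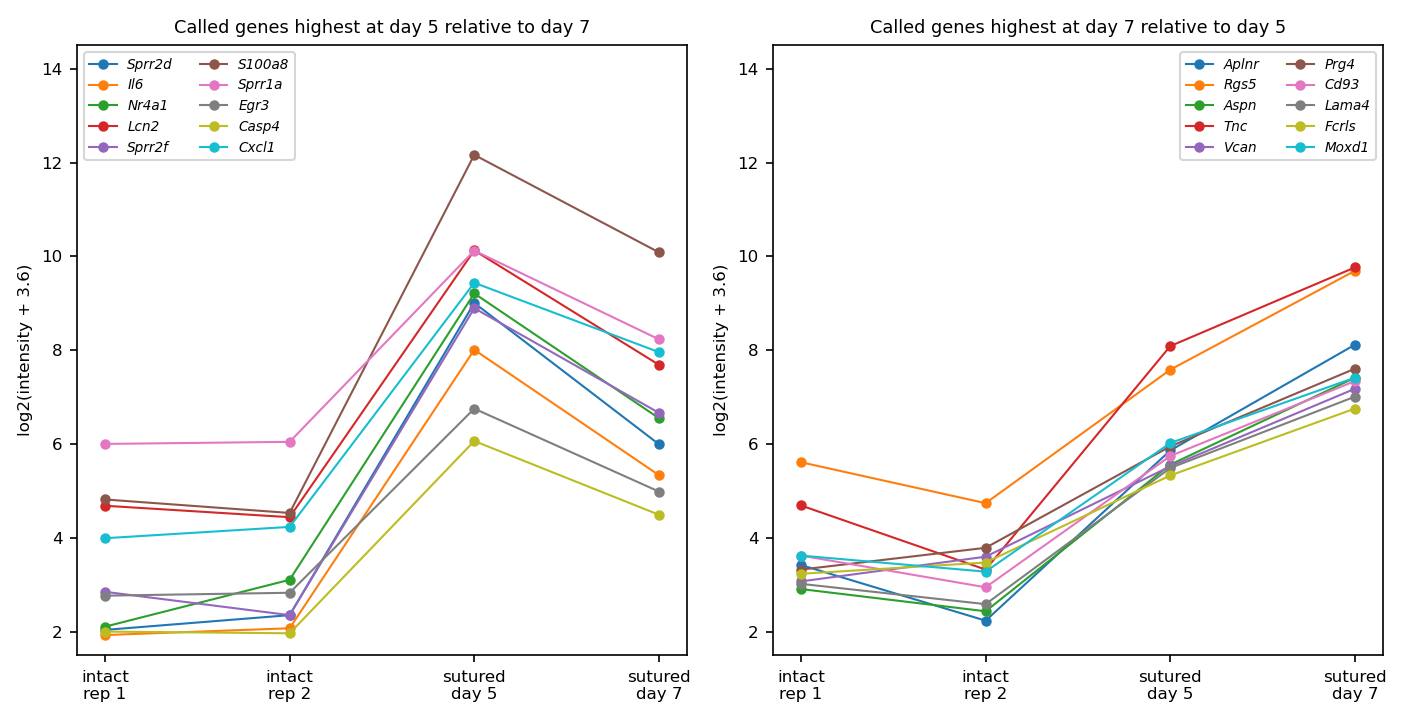
Signal as log2(intensity + 3.6) on the 2 intact arrays and the sutured arrays of day 5 and day 7 (1 array each) for the called genes with the largest excess at day 5 (left) and at day 7 (right). Lines join the values of 1 gene. S100a8 reads 4596.4 at day 5 and 1085.1 at day 7, whereas Aplnr reads 54.6 and 274.3.

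The sutured corneas without Dscr1 (day 5) and with the Dscr1 transgene (day 7) are single arrays, and 3 genes picked after their values were seen are given beside the wild type. Krt16 read 263.6 in the Dscr1-null cornea and 2230 in the wild-type cornea at day 5, and 3436.5 in the Dscr1 transgenic cornea and 2239.7 in the wild-type cornea at day 7. Rgs5 read 907.4 in the Dscr1-null cornea and 188.4 in the wild-type cornea at day 5, and 260.5 in the Dscr1 transgenic cornea and 824.8 in the wild-type cornea at day 7. Ccn2 lay closer, at 1287.8 in the Dscr1-null cornea and 898.6 in the wild-type cornea at day 5, and 1281.4 in the Dscr1 transgenic cornea and 1214.1 in the wild-type cornea at day 7. These differences were not tested. The arrays of other genotypes were kept out of the main fit because they differ in sex-linked transcripts and hold samples of doubtful label.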

How the data were processed

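RNA of whole corneas was labelled from 100 ng total RNA and hybridised to Affymetrix arrays, per the labels' protocols. The deposited values are linear probe-set intensity on 12 arrays, scaled by the authors to a trimmed mean of 100 (2% trimmed at each end, as the values show). Which software made them is not stated. Of 45101 probe sets, 34958 have 1 gene symbol in the platform table (932 several, 9211 none), and these were checked against RefSeq's gene table (GRCm38.p6), which lacks 204 of their gene IDs. Each of 18194 genes was represented by its brightest probe set. A constant of 3.6, the 20th percentile over the 12 arrays, was added before taking log2. Genes with a mean over the 12 arrays at or above the 40th percentile were tested (12711, with Rcan1 and Apoe always kept).

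The comparison was fitted on the 4 wild-type arrays with limma 3.58.1 in R 4.3.3, with an intensity trend, 2 residual degrees of freedom (6.03 with the prior) and Benjamini-Hochberg adjustment at 0.05. The fit was tested on simulated data. Of 672 genes in 44 lists, 622 had a probe set; the others were not analysed here. Of 258 called genes with several probe sets, 14 have one of opposite sign. Named genes are the 15 largest rises and falls with groups that do not overlap, up to 4 called members of each list (or the 2 lowest p), Rcan1, Apoe and the 10 highest and lowest differences between days; other list members and neighbouring genes were chosen after their values were seen. The lists and the comparison were chosen with earlier results of these data known. Alternatives were the filter, quantile normalization, constants of 1.2 and 10.2, no trend, 12 arrays, 7 arrays with Dscr1 genotype, single probe sets and each array left out. Promoter windows came from RefSeq. Plots used matplotlib 3.10.9 (python 3.11.15).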

Additional observations from a re-analysis of the deposited data

Results flagged for a closer look

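In these results the day 5 and the day 7 array lay on opposite sides of both intact arrays, so that the change from intact had opposite signs on the 2 days. With 1 array a day, the difference between the days was not tested. Rcan1, the regulator of calcineurin, differed by -0.19 on the log2 scale (day 7 minus day 5). The median change of the fibrillar and stromal collagens from intact differed by 0.88 and that of the basement membrane collagens and laminins by 0.87, with day 7 the higher. The median of the EGF receptor family and its ligands differed by -0.82, that of the cell cycle genes by -0.31 and that of the cholesterol synthesis genes by -0.41, with day 7 the lower. The 2 days belong to single corneal samples, and the lens genes also differed between these arrays (a median day 7 minus day 5 of 3.20), whose part in these values was not tested.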

How the results depend on the processing

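The 583 calls (411 rises and 172 falls) stayed within 1.5 times under the stricter filter (518), quantile normalization (625), the other constants (573 and 565) and single probe sets (709 of 22721 probe sets). They were 343 (263 and 80) with no filter, 261 (225 and 36) with no intensity trend, 206 (191 and 15) with all 12 arrays in the fit, and 0 (0 and 0) with 7 arrays and Dscr1 genotype as a term. In that last limma fit 1251 genes had an unadjusted p under 0.05 and 560 of the 583 kept their sign. The fits of 12 and of 7 arrays use other genotypes, whose arrays differ in sex-linked transcripts and hold samples of doubtful label. The cause of the lower counts was not tested. With each array left out in turn, the calls were between 13 and 2222, the rises between 13 and 1033 and the falls between 0 and 1200, and the 583 kept their sign in each. Of 146 named genes, 104 lost their call without intact replicate 1 and 109 without intact replicate 2. A gene whose 2 groups do not overlap keeps its sign whichever array is left out, so for such genes the kept signs were fixed in advance. With 1 array left out, Apoe lay between -0.01 and 0.39, Mylpf between -0.38 and 0.08 and Rcan1 between -0.14 and 0.05, so that each turned sign in 1 of these fits. Mylpf (0.09) and Rcan1 (0.08) also turned with 7 arrays, and Rcan1 on another probe set (0.47). Under the 7 arrays Col4a3 (0.25), Ebp (-0.12) and Sprr2d (-0.15) also turned, and on other probe sets Inhbb (-0.77) and Tgfa (-0.09). Not all of the 146 were called in the main fit, so fewer than 146 had a call to lose. With 10.2 added, 16 lost their call and kept their sign. These 16 were 2610206C17Rik, Aplnr, Casp4, Cd36, Cfb, Ecscr, Egr3, Fcrls, Il6, Klrd1, Mitf, Omd, Rgs5, Spock1, Sprr2d and Vcan. Only part of the 146 had another probe set tested, and the one with the lowest p was taken. Among those genes, 31 kept their sign and stayed called or uncalled, 2 gained a call and 3 turned sign. The 18 that lost their call and kept their sign were Aplnr, Clec4e, Col4a3, Cybb, Fgf7, Lyve1, Msr1, Notch3, Nrp2, Ptprc, Rab17, Rgs5, Selp, Skil, Syt7, Thbs1, Upk3b and Vldlr. No paired analysis was possible because the sutured samples carry a day and no replicate number. Precision is limited by having 2 arrays a group, and the size of changes of dim genes depends on the added constant.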

Other observations

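Several gene families, some of whose members also stand in the lists above, were picked after their values were seen. All 6 C-type lectins of the Clec4 and Clec7 families that were tested rose (median 3.35), beside 3.23% of all genes tested, and the filter could favour rises. They are pathogen receptors of myeloid cells, and Clec7a, the beta-glucan receptor dectin 1, read 165.7 and 218.8 in sutured corneas, against 10.1 and 19.6 in intact corneas (3.44 ± 0.31, adjusted p = 0.00691). Of 4 metalloreductases of the Steap family 3 rose, with Steap4 at 1288.1 and 1351.3 against 371 and 200 (2.26 ± 0.28, adjusted p = 0.0142). The shared receptor chain Csf2rb rose by 3.03 and Hdc, which makes histamine, by 3.38. Cebpd, a transcription factor of the acute-phase response, read 851.9 and 637.1 against 86.1 and 82.8 (3.07 ± 0.17, adjusted p = 0.00194).

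Families of metabolism and epithelial adhesion, also picked after their values were seen, held some falls, beside 1.35% of all genes tested that fell. Of 17 glycogen enzymes and regulators, 2 fell and 1 rose (median -0.19). Ppp1r3c, which targets a phosphatase to glycogen, read 1130.4 and 1491.5 in sutured corneas, against 4731.1 and 3780.1 in intact corneas (-1.70 ± 0.19, adjusted p = 0.0122). Pygl, a glycogen phosphorylase, read 538.1 and 472.4 against 1325.2 and 1350.6 (-1.40 ± 0.12, adjusted p = 0.00613). Of the 3 basement membrane proteins Fras1, Frem1 and Frem2, Fras1 fell by 1.06 and Frem2 by 1.36. Among 12 claudins, which seal epithelial junctions (median -0.07), Cldn1 rose by 2.40, whereas Cldn3 fell by 0.95 and Cldn8 by 1.37. Of 27 keratins 7 rose, and Krt78 alone fell, by 1.5 ± 0.12 (adjusted p = 0.00453). Egf, the epidermal growth factor gene, read 25.2 and 30.5 against 75.9 and 76.2 (-1.35 ± 0.21, adjusted p = 0.0264).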
